A study of Mus musculus with 2 samples.

Results

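The inflammatory ligand genes Ccl3, Ccl4, Ccl6, Ccl9, Cxcl2, Il1b and Tnf, were followed cell by cell in mouse MLL-AF9 acute myeloid leukemia. They were taken by symbol, 7 of the 27998 genes measured, and all 7 were found. Droplet RNA sequencing with 3′ tagged, molecule-barcoded transcripts (unique molecular identifiers, UMIs) had been run on 1 library per genotype, each a pool of separate leukemias. Marrow came from mice that all carried Kat2a Flox/Flox and had all received pIpC, which switches on the Mx1 promoter. The group called WT had no Cre (Mx1-Cre -/-) and the group called KO had 1 copy (Mx1-Cre+/-), so that Kat2a, a histone acetyltransferase, was excised before leukemia was started. Lineage-depleted marrow taken 4 to 6 weeks after treatment received MLL-AF9 by retrovirus and was transplanted into lethally irradiated mice. Cells of 5 WT and 4 KO terminal leukemias were frozen, thawed, pooled by genotype and sorted as YFP-positive, Hoechst-excluding single cells, YFP reporting the retrovirus. The cells of single leukemias cannot be told apart within a pool.

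Chemokines are small secreted proteins that draw leukocytes along a gradient. Ccl3 and Ccl4 (also called MIP-1 alpha and MIP-1 beta) act on monocytes, macrophages and lymphocytes, Ccl6 and Ccl9 are rodent chemokines made mainly by myeloid cells, and Cxcl2 attracts neutrophils through the receptor Cxcr2. Il1b and Tnf are cytokines that start and spread inflammation. In myeloid cells such genes are often under NF-kB and AP-1 factors, can be switched on within minutes of a stimulus, and many of their transcripts are short-lived.

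Cells were used if they showed at least 500 genes, 3866 of 4069 in the WT-labelled library and 3545 of 4240 in the KO-labelled library. Their median depth was 2588.5 and 1884 UMIs per cell, with 1050.5 and 819 genes, and 28 barcodes, 19 of them among kept cells, occurred in both libraries. The granulocyte list summed to 79230 and 76777 counts per 1000000 UMIs (CPM) and the primary-granule progenitor list to 14983 and 13341 CPM, in the WT- and KO-labelled libraries, in that order, so the cells carried the markers of a myeloid leukemia. Kat2a itself stood at 12.2 CPM in the WT-labelled library and at 95.8 CPM in the KO-labelled library, 7.88-fold higher in the latter. Because the excised gene still makes a rearranged transcript with its 3′ end, per the study, this 3′ tag does not check the deletion. The libraries are therefore called by their labels throughout. A single library stood for each genotype, so the genotypes were not tested against each other. Intervals below are exact 95% intervals that cover counting error only, and UMIs that cluster in few cells vary more than they show.

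The 4 Ccl members sit together on chromosome 11 (mm10/GRCm38), within 91765 bases. On the minus strand lie Ccl9 at 83572919 to 83578636, Ccl6 at 83587882 to 83593087 and Ccl3 at 83647844 to 83649355, and on the plus strand Ccl4 at 83662584 to 83664683. Cxcl2 lies on chromosome 5 at 90903871 to 90905938 (plus strand), Il1b on chromosome 2 at 129364570 to 129371139 (minus strand) and Tnf on chromosome 17 at 35199381 to 35202007 (minus strand). Ccl6 overlaps E230016K23Rik and Il1b overlaps Il1bos, both annotated on the opposite strand. The longest run of bases shared by transcripts of any pair of members was 25, between Ccl6 and Ccl9, and no other pair shared more than 14. The sequence just upstream of 4 members is shown because these 4 behaved most differently among the cells: Cxcl2 differed most between the libraries, Ccl6 was the most unevenly held of those found in at least 10% of the kept cells, Ccl9 was also high in clusters of cells with little Ccl6, and for Tnf the share of cells was closer to that of an even spread than for any of the chemokines. Each is the plus or minus strand of the gene read 5′ to 3′ from RefSeq (GRCm38.p6), ending just before the gene. Capitals mark an NF-kB type motif (GGGA, any 4 bases, CC) or TATAAA, on either strand.
Cxcl2, plus strand of chr5:90903779-90903870: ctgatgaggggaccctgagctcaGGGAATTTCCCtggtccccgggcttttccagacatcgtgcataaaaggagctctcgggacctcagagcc
Ccl6, minus strand of chr11:83593088-83593207: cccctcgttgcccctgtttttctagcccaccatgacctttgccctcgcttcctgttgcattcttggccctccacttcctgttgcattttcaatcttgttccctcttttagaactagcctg
Ccl9, minus strand of chr11:83578637-83578756: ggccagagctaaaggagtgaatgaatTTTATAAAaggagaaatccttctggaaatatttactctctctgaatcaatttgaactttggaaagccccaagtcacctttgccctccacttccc
Tnf, minus strand of chr17:35202008-35202127: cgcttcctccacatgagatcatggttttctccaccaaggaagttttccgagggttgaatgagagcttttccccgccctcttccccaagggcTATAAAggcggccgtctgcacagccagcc
Over the 250 bases upstream of the start, the NF-kB type motif was present in 1 of the 6 members in the RefSeq table (Cxcl2) and in 17.6% of all 32851 promoters. A looser form of it that contains the first (GGG, any 5 bases, CC) was in 3 of 6 members (Cxcl2, Ccl9 and Tnf) and in 45.8% of promoters. TATAAA was in 3 of 6 (Il1b, Ccl9 and Tnf) and in 12.4% of promoters. The AP-1 type motif TGANTCA was in 1 of 6 (Ccl9) and in 6.75%. These are letter matches in a window and not measured sites.

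Ccl3 had 4986 UMIs in the WT-labelled library and 3148 in the KO-labelled library, which is 427 CPM (415 to 439) and 397 CPM (384 to 412). Cxcl2 had 3742 and 1562 UMIs, 321 CPM (310 to 331) and 197 CPM (188 to 207). These intervals did not overlap for Cxcl2, nor did they for Ccl3, where the gap was far smaller. Ccl6 was counted with 2435 and 1616 UMIs, 209 CPM (200 to 217) and 204 CPM (194 to 214), and the intervals overlapped. Ccl9 was the 1 abundant member that was higher in the KO-labelled library beyond counting error, with 2257 and 1858 UMIs, 193 CPM (186 to 202) and 235 CPM (224 to 246). Tnf had 611 and 376 UMIs, at 52.4 CPM (48.3 to 56.7) and 47.5 CPM (42.8 to 52.5). Ccl4 had 458 and 358 UMIs, at 39.2 CPM (35.7 to 43.0) and 45.2 CPM (40.6 to 50.1). In both genes the intervals of the libraries overlapped. Il1b was nearly absent from kept cells, with 43 and 23 UMIs, 3.68 CPM (2.67 to 4.96) and 2.90 CPM (1.84 to 4.36). Together the members made up 1245 CPM (1225 to 1266) and 1129 CPM (1106 to 1153), and these 2 intervals did not overlap.

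**Figure D1:**
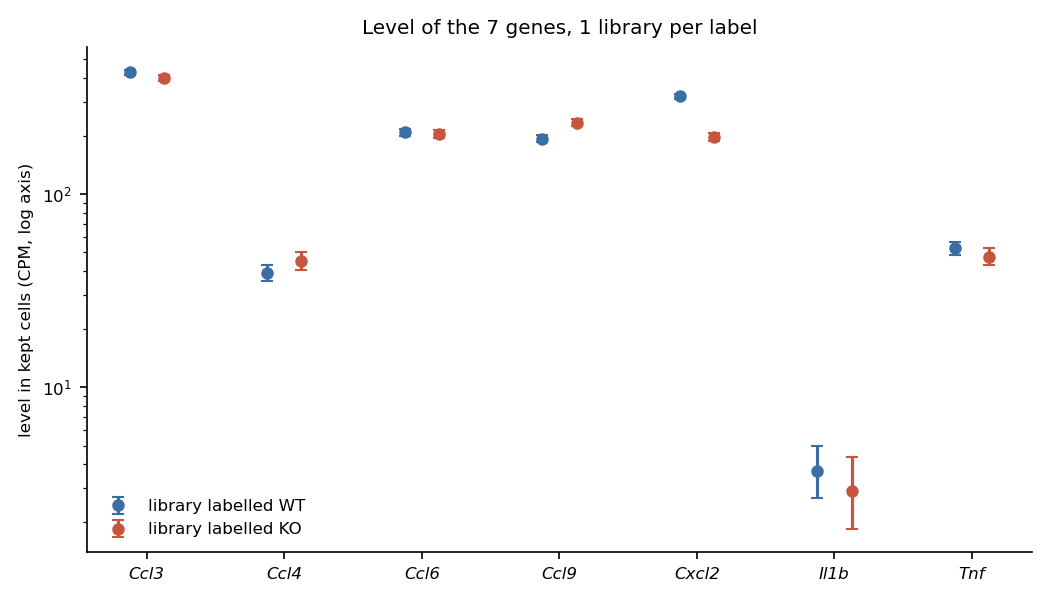
Level of each gene in kept cells in counts per 1000000 UMIs (log axis), 1 point per library, with exact 95% Poisson intervals as bars. Cxcl2 stands at 321 CPM in the WT-labelled library and 197 CPM in the KO-labelled library, the widest gap among the abundant genes, and Il1b lies far below the rest in both.

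As log2 ratios of CPM, the KO-labelled library over the WT-labelled one, Cxcl2 stood at -0.70 (-0.79 to -0.62) and was the 1 member of 7 past 1.5-fold. No member was higher by 1.5-fold or more. Among all 9307 genes with at least 50 UMIs, 11.8% were lower and 6.79% higher by that rule, so 1 lower member of 7 is close to the background share. The other ratios were 0.28 for Ccl9 (0.19 to 0.37), 0.20 for Ccl4 (0.00 to 0.41), -0.03 for Ccl6 (-0.12 to 0.06), -0.10 for Ccl3 (-0.17 to -0.04), -0.14 for Tnf (-0.33 to 0.05) and -0.34 for Il1b (-1.14 to 0.42). The median over all tested genes was -0.01.

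The ratios depended on how many genes a cell showed. The summed level of the 7 fell steeply with genes per cell. It was 3149 CPM in the WT-labelled library and 2929 CPM in the KO-labelled library in cells with 500 to 599 genes. In cells with 1200 genes or more it was 745 and 754 CPM. Ccl9 did not follow this fall, at 182 and 217 CPM in the first of these bands and 189 and 365 CPM in the second. The KO-labelled library had more of the shallow cells, 592 against 349 with 500 to 599 genes, and fewer of the deep ones, 621 against 1485 with 1200 or more. The near-equal sums at 1200 genes or more held differences in both directions. Ccl3 was lower in the KO-labelled library there, at 250 and 169 CPM, and so was Cxcl2, at 197 and 104 CPM. Ccl9 and Ccl6 were higher. In the bands between those ends the summed levels separated. The summed level was 2636 against 1468 CPM in cells with 600 to 799 genes, a log2 ratio of -0.85 (-0.92 to -0.77), and 1526 against 861 CPM in cells with 800 to 1199 genes, a log2 ratio of -0.83 (-0.90 to -0.75).

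Cxcl2 was lower in the KO-labelled library in each of these 4 bands, with 876 against 674 CPM, 749 against 230, 346 against 154 and 197 against 104 CPM from the fewest genes to the most. Its largest gap was in cells with 600 to 799 genes, a log2 ratio of -1.70 (-1.88 to -1.53). Ccl6, whose intervals overlapped over whole libraries, differed within the middle bands. It stood at 681 CPM in the WT-labelled library and 329 CPM in the KO-labelled one in cells with 600 to 799 genes, and at 275 and 115 CPM with 800 to 1199 genes. In cells with 1200 or more genes the order of Ccl6 turned, at 46.8 and 66.8 CPM. Ccl9 also turned with genes per cell: at 800 to 1199 genes it was 209 and 139 CPM, and at 1200 or more 189 and 365 CPM. Ccl3 went from 970 and 1036 CPM at 500 to 599 genes, where the intervals of the libraries overlapped, to 578 and 358 CPM at 800 to 1199 genes. Tnf was 68.7 and 44.3 CPM in that band. Matching cells of the libraries one to one on total UMIs within 5% (2904 cells of each) gave log2 ratios of -1.09 for Cxcl2, -0.99 for Ccl6, -0.69 for Ccl3, -0.50 for Tnf, -0.40 for Ccl4 and 0.17 for Ccl9. By that choice 4 members were lower by 1.5-fold or more, the fourth being Il1b at -1.34, which rests on few UMIs.

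**Figure D2:**
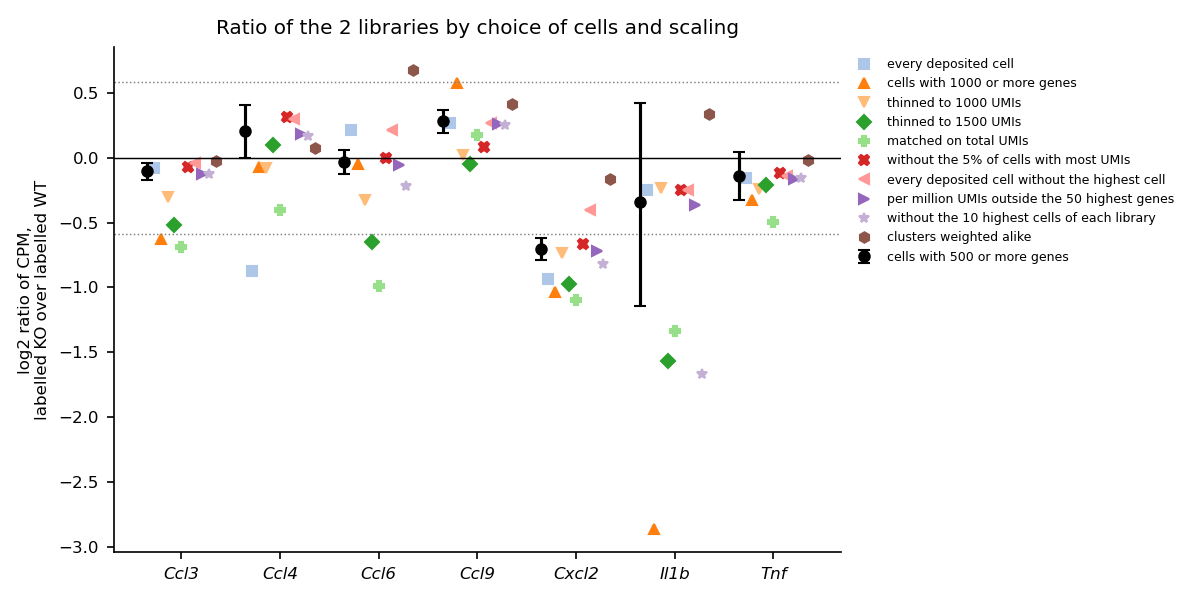
Log2 ratio of CPM, KO-labelled over WT-labelled library, for each gene: the black point with its 95% counting interval uses cells with 500 or more genes, coloured points the other choices of cells, depth and scaling, and dotted lines mark 1.5-fold. Cxcl2 lies below 0 by every choice (-1.09 to -0.17), Ccl6 runs from -0.99 to 0.67, and Il1b spreads widely on its 66 UMIs.

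A second choice moved the ratios the other way. The libraries differed in the makeup of their cells, described next, and when each of 12 clusters was given the same weight in both libraries the Cxcl2 ratio was -0.17, that of Ccl6 0.67 and that of Ccl9 0.41. The sum over the members then turned from -0.14 to 0.15. No single direction for the 7 genes together held under both choices.

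The transcripts were unevenly held. Ccl3 was seen in 41.9% of kept cells of the WT-labelled library and 33.0% of those in the KO-labelled library. If each cell had carried the same fraction of Ccl3, the counts would have reached 66.9% and 54.7% of cells. Ccl6 was seen in 19.2% and 12.0% where an even spread would have reached 44.0% and 34.8%. Cxcl2 was seen in 31.3% and 16.7% (57.6% and 33.9% if even) and Ccl9 in 21.3% and 18.4% (41.7% and 38.5%). Ccl4 reached 5.74% and 4.63% of cells against 11.0% and 9.46% if even. Tnf was seen in 12.4% and 8.72% of cells, closer to its even values of 14.3% and 9.90% than the 5 chemokines were to theirs. Il1b was found in 38 and 16 cells, 0.983% and 0.451% against 1.10% and 0.646% if even.

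Because the libraries differed in depth, each cell was thinned to 1000 UMIs, which left out 66 and 194 shallower cells. Ccl3 was then in 25.6% and 21.9% of cells, Cxcl2 in 18.7% and 11.3%, Ccl6 in 12.7% and 7.52%, Ccl9 in 12.9% and 12.2%, Tnf in 5.92% and 5.04%, and Ccl4 in 3.11% and 2.86%. The exact intervals of the libraries did not overlap for Ccl3, Cxcl2 and Ccl6, and overlapped for Ccl9, Tnf, Ccl4 and Il1b. At own depth, cells with any Ccl6 held 3.79 UMIs each in the KO-labelled library and 3.27 in the WT-labelled one. Over thinned cells the level of Ccl6 was itself lower in the KO-labelled library, at a log2 ratio of -0.33.

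The highest single kept cell held 32 UMIs of Ccl3 in the WT-labelled library and 30 in the KO-labelled one. For Ccl6 the highest cells held 47 and 50 UMIs, for Cxcl2 40 and 39, for Ccl9 21 and 29, for Ccl4 19 and 14, for Tnf 6 and 4, and for Il1b 2 and 4. The 1% of cells with most (39 and 35 cells) held 24.2% of all Ccl6 UMIs in the WT-labelled library and 44.9% in the KO-labelled library. They held 17.7% and 30.7% of Cxcl2, 17.7% and 20.7% of Tnf, 17.1% and 20.7% of Ccl9, 13.3% and 14.6% of Ccl3, and 48.7% and 53.6% of Ccl4. Ccl6 and Cxcl2 were therefore held by fewer cells in the KO-labelled library. Its lower depth was thinned away in a second count, in which the same 1% held 28.3% and 53.7% of Ccl6 and 25.5% and 38.9% of Cxcl2.

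Among 2737 genes found in at least 10% of kept cells, this share for Ccl6 ranked 5 in the WT-labelled library and 1 in the KO-labelled library, from the most uneven. Cxcl2 ranked 294 and 17. Ccl9 (395 and 480), Tnf (306 and 468) and Ccl3 (1169 and 1440) were less extreme, and the medians over these genes were 12.5% and 14.9%. By the squared coefficient of variation after subtraction of counting variance, Ccl6 ranked 22 and 14, Cxcl2 40 and 32, Ccl3 142 and 346, Ccl9 151 and 181 and Tnf 496 and 834. Ccl4 and Il1b were found in too few cells to enter these ranks.

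**Figure D3:**
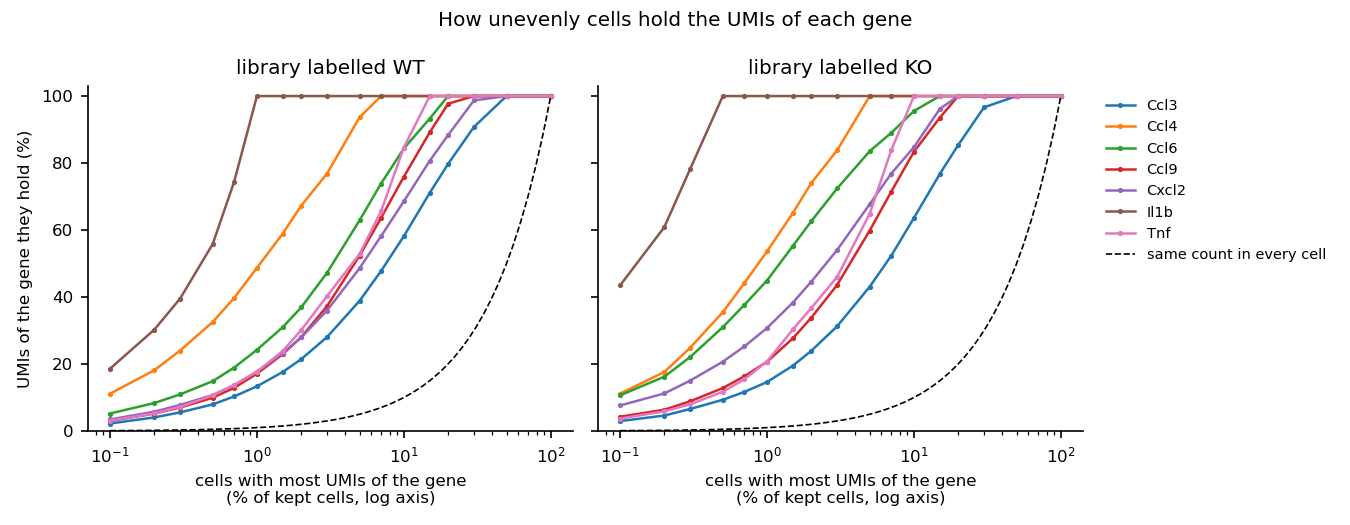
Percent of the UMIs of each gene (vertical) held by the cells with most of it (percent of kept cells, log axis), 1 panel per library, with a dashed line for the same count in every cell. The Ccl6 curve lies above those of Ccl3, Ccl9, Cxcl2 and Tnf at 1% of cells, at 24.2% in the WT-labelled library and 44.9% in the KO-labelled library. The Il1b curve reaches 100% at once because so few cells carry it.

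In the WT-labelled library, 70.8% of cells had a UMI of at least 1 member and 16.5% (639 cells) of at least 3. In the KO-labelled library these were 58.7% and 8.10% (287 cells). After thinning, 1900 of 3800 and 1462 of 3351 cells had at least 1 member, and 6.92% (6.13 to 7.77) and 3.79% (3.17 to 4.49) at least 3. Free RNA in the droplets was not estimated and can give a cell a UMI of a gene it does not express. Of the cells with a UMI at own depth, 42.2% and 46.5% had a single UMI for Ccl3, 44.8% and 54.5% for Ccl6, and 79.2% and 80.9% for Tnf. As no cell class known to lack these genes was at hand, the lowest share of thinned cells in any of the clusters 1 to 11, described next, stands as the nearest measure. It was 8.30% and 8.73% for Ccl3, 6.96% and 4.50% for Cxcl2, 1.03% and 0.499% for Ccl9 and 0.342% and 0.450% for Ccl6. No kept cell had all 7, and 6 cells of the WT-labelled library and 1 of the KO-labelled one had 6.

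**Figure D4:**
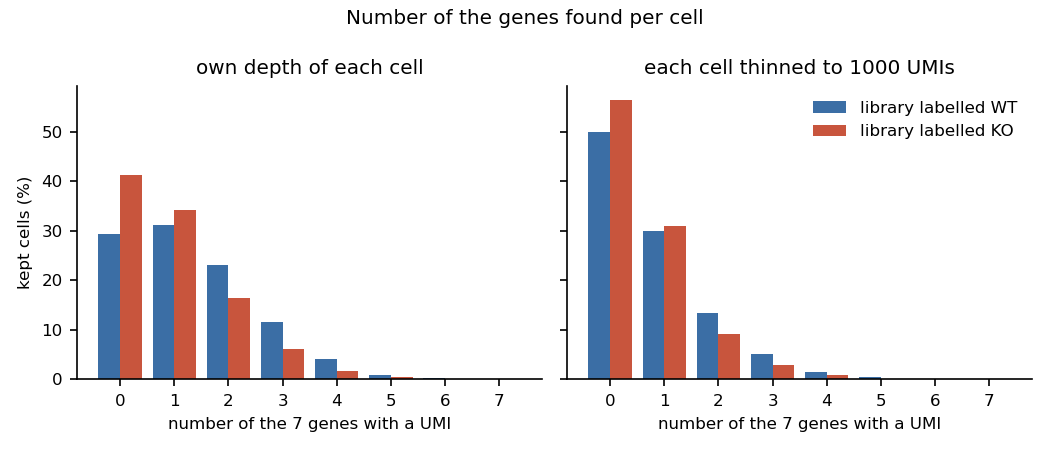
Percent of kept cells by the number of the 7 genes with a UMI, at the own depth of each cell (left) and after thinning each cell to 1000 UMIs (right). Cells with 3 or more make up 16.5% and 8.10% at own depth and 6.92% and 3.79% after thinning.

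Cells with 1 chemokine had a second more often than cells without it in the pairs given here, and of the 12 pairs with Tnf, 6 in each library, 1 showed this beyond the counting intervals. Among thinned cells with Ccl3, 8.02% in the WT-labelled library and 8.30% in the KO-labelled library also had Ccl4, its neighbour on chromosome 11, against 1.41% and 1.34% of cells without Ccl3. Ccl9 was in 32.4% and 34.5% of the cells with Ccl6 and in 10.0% and 10.4% of those without. Ccl6 was in 25.8% and 14.7% of cells with Ccl3 and in 8.24% and 5.50% of the others. Cxcl2 was in 38.0% and 23.8% of cells with Ccl6 and in 15.9% and 10.3% of those without. Tnf was in 5.45% and 4.76% of cells with Ccl3 and 6.08% and 5.12% without it. With Ccl9 the order for Tnf was the opposite of that of the chemokines, 3.27% and 2.44% of cells with Ccl9 and 6.31% and 5.40% of those without. With Cxcl2, Tnf was in 8.30% of cells against 5.37% without it in the WT-labelled library, where the intervals did not overlap, and in 4.21% against 5.15% in the KO-labelled one.

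To see which cells these were, cells were clustered on genes other than the members and the listed inflammatory genes. Of the 12 clusters, number 1 was progenitor-like by its primary-granule genes (Elane, Mpo), 2 and 4 were granulocyte-like (Ngp and Lcn2, then Ly6g, Mmp9 and Ltf), and 12 was dendritic-like (H2-Aa, Cd74). Number 10 was led by Mcpt8 and Cpa3, genes of basophils and mast cells, although Prss34 was at 0 in both libraries and Fcer1a in the WT-labelled one. Of the 8 basophil or mast cell markers 4 were raised there. So were 4 of the 5 megakaryocyte markers and 3 of the 9 primary-granule progenitor markers, so its cell type is not settled by these lists. The rest are called by their leading genes. Cluster 3 had Sox4 and Cd34, clusters 5 and 9 mitotic genes (Ube2c and Kif2c), cluster 6 genes of DNA replication (Ccne2, Rrm2), cluster 8 Irf8 and Prdx4, cluster 7 Lpl, Wfdc17 and Ctss, and cluster 11 Sirpb1c, Ms4a6d and Fn1. Of the 16 monocyte or macrophage markers, 12 were raised in cluster 7 and 12 in cluster 11. The list was not particular to these: 11 of its genes were raised in cluster 12, 9 in cluster 8 and 6 in cluster 3. The libraries differed in the share of their cells in each cluster. Cluster 11 held 7.53% of cells in the WT-labelled library and 3.05% in the KO-labelled one, and cluster 4 held 14.3% and 4.20%. Cluster 3 held 4.37% and 15.5%, and cluster 12 held 7 and 65 cells.

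Ccl6 was concentrated in cluster 11, led by Sirpb1c and Fn1. Its level there was 2816 CPM (2666 to 2972) in the WT-labelled library and 5857 CPM (5488 to 6245) in the KO-labelled library, and after thinning 79.0% and 81.5% of the cells had a UMI. These 291 and 108 cells gave 4.01% and 2.02% of all UMIs but 54.0% and 58.0% of those of Ccl6. In the mitotic cluster 5 its level was 7.56 and 45.7 CPM, and 0.342% and 2.00% of thinned cells had a UMI. Cluster 7 followed at 912 and 727 CPM. Among the 1% of cells with most Ccl6, 32 of 39 and 30 of 35 were in cluster 11.

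Ccl3 had several high clusters rather than 1. It stood at 1707 and 1611 CPM in cluster 11, 1698 and 1660 CPM in cluster 7, and 1469 and 892 CPM in the Sox4 and Cd34 cluster 3, against 106 and 110 CPM in the mitotic cluster 5. In clusters 7 and 11 the counting intervals of the ratio between libraries included 0. Cluster 3 held 10.1% of Ccl3 UMIs in the WT-labelled library and 22.5% in the KO-labelled library, where it had more cells. Ccl4 was highest in cluster 11 in one library and in cluster 7 in the other: 199 and 37.5 CPM in cluster 11 (93 and 6 UMIs), and 111 and 309 CPM in cluster 7 (72 and 108 UMIs).

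Ccl9 was graded over several clusters. Its highest levels were in cluster 11, at 845 and 1430 CPM, with cluster 7 at 681 and 822 CPM. A further part came from clusters with little Ccl6: the Mcpt8 and Cpa3 cluster 10, at 398 and 620 CPM, and the Irf8 cluster 8, at 370 and 489 CPM. Cluster 8 held 24.5% and cluster 10 20.2% of Ccl9 UMIs in the WT-labelled library, and 12.3% and 39.2% in the KO-labelled one. Ccl6 was at 28.8 and 24.7 CPM in cluster 10 and at 84.4 and 66.2 CPM in cluster 8. Cluster 3 followed for Ccl9 at 237 and 250 CPM. In the granulocyte-like clusters 2 and 4 Ccl9 was near absent, between 7.59 and 13.9 CPM. Of the cells with most Ccl9, 14 of 39 in the WT-labelled library were in cluster 8, and 22 of 35 in the KO-labelled library were in cluster 10.

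Cxcl2 was highest in cluster 11, at 1508 and 1617 CPM, and next in the granulocyte-like cluster 4, at 727 and 1234 CPM. The lower level of Cxcl2 in the KO-labelled library was not shared by these: the ratio in cluster 11 was 0.10 (log2) with an interval across 0, and in cluster 4 it was 0.76, the 1 cluster where the interval lay above 0. In 6 of the 12 clusters the interval lay below 0. Among them was the progenitor-like cluster 1, with 347 and 155 CPM, and cluster 10, with 126 and 46.8 CPM. The 3 largest clusters by cells (1, 2 and 3) carried less Cxcl2 in the KO-labelled library. Clusters 11 and 4, with the highest levels of Cxcl2, had 291 and 551 cells in the WT-labelled library and 108 and 149 in the KO-labelled one, and held 18.8% and 20.5% of its UMIs in the first and 16.6% and 20.5% in the second.

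Tnf was spread in another way. It was at 111 and 135 CPM in cluster 4 and 107 and 77.8 CPM in cluster 2, both granulocyte-like, and at 57.8 and 87.4 CPM in cluster 11, the cluster with most of the chemokines. In the Mcpt8 and Cpa3 cluster 10 it fell to 13.1 and 9.35 CPM. In the WT-labelled library the dendritic-like cluster 12 read 295 CPM, but from 3 UMIs in 7 cells. In the WT-labelled library the mitotic cluster 5 had more Tnf (66.9 CPM) than Ccl6 (7.56 CPM), and in the KO-labelled library their intervals there overlapped (50.7 and 45.7 CPM). Cluster 11 had far more Ccl6 than Tnf in both, so the 2 genes did not keep 1 ratio across the cells of a library. Il1b gave 14 of its 43 and 9 of its 23 UMIs in cluster 11, at 30.0 and 56.2 CPM. Over all members and both libraries together, the highest cluster was 27.8 times the lowest.

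**Figure D5:**
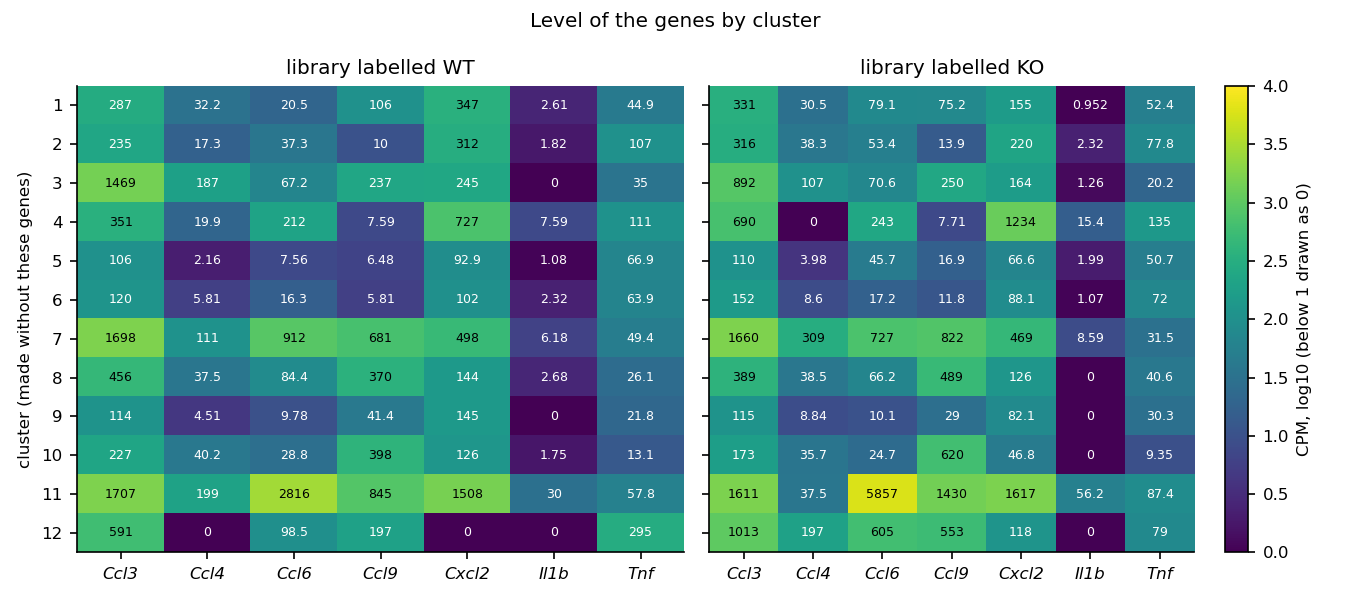
Level of each gene (CPM, printed in each cell and coloured on a log10 scale) in 12 clusters made without these genes, 1 panel per library. Row 11 is high for Ccl3, Ccl6, Ccl9, Cxcl2 and Il1b in both libraries, rows 7 and 3 for Ccl3, rows 10 and 8 for Ccl9, and row 4 for Tnf. Cluster 12 has 7 cells in the WT-labelled library.

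Marker lists showed the same split without clusters. In thinned cells of the WT-labelled library and the KO-labelled one, the summed level of the monocyte or macrophage list was 3.57 and 3.08 times as high in cells with Ccl6 as in cells without it. The ratio was 2.77 and 2.45 for Ccl9, 2.27 and 1.94 for Ccl3, 2.24 and 1.76 for Ccl4, and 1.65 and 1.41 for Cxcl2. For Tnf it was 0.82 and 0.72. All 16 genes of this list had UMIs in both libraries, 5 of them under 10 CPM, and it summed to 2532 and 2273 CPM over whole libraries. In the KO-labelled library the dendritic list had larger ratios than the monocyte list, 10.7 for Ccl6, 7.76 for Ccl4, 4.60 for Ccl9 and 2.35 for Ccl3. In the WT-labelled library it was 4.93 for Ccl3 but 0.75 for Ccl6, 0.64 for Ccl4 and 0.93 for Ccl9. That list summed to 115 and 758 CPM over whole libraries, with Xcr1 and Clec9a at 0 in both, and its part in the member levels was not tested. The granulocyte list ran the other way from the monocyte list, at 0.10 and 0.13 for Ccl9, 0.38 and 0.48 for Ccl6, 0.44 and 0.60 for Ccl3, 0.86 and 0.94 for Cxcl2, and 1.47 and 1.52 for Tnf. The basophil or mast cell list was 5.09 and 6.50 times as high in cells with Ccl9 and 0.46 and 0.50 times in cells with Ccl6. The list of mitotic genes was lower in cells with a chemokine, at 0.22 and 0.31 for Ccl6 and 0.40 and 0.56 for Ccl3, against 0.82 and 0.89 for Tnf. The summed immediate early genes, which also rise when cells are handled, were 1.96 and 1.73 times as high in cells with Ccl6, 1.63 and 1.43 with Ccl3, 1.53 and 1.45 with Cxcl2, and 1.10 and 1.15 with Tnf. Over whole libraries this list summed to 11523 and 13246 CPM, and its part in the member levels was not tested. In the 39 and 35 cells with most Ccl6, the macrophage complement genes C1qa and C1qb were both at 0 in the WT-labelled library. In the KO-labelled library they were at 101 and 607 CPM. These 35 cells had a median depth of 1178 UMIs, so low levels there rest on few UMIs, that of C1qa most of all. Other markers of the list ran the other way in the same cells, Apoe at 3242 and 2531 CPM and Ly6c2 at 411 and 202 CPM. In the KO-labelled library Ly6c2 rested on fewer UMIs than C1qb. The whole monocyte or macrophage list was at 7443 and 7046 CPM there.

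The genes whose levels were most like each member over single cells gave the same grouping. Likeness was the Pearson correlation of log-scaled counts within each library, averaged over the libraries, among 6617 genes; these points share their depth and library, and the values are a description. The closest to Ccl6 were Wfdc17 (0.46), Ctss (0.46), Apoe (0.45), Sirpb1c (0.42) and Dpep2 (0.39). Ccl9 was closest to the lysosomal protease gene Ctss (0.40), Ms4a6c (0.38), the monocyte chemokine receptor gene Ccr2 (0.34), Wfdc17 (0.33) and Pld4 (0.33). For Ccl3 they were Ftl1 (0.32), Ctss (0.32), Wfdc17 (0.32), Apoe (0.29) and Pld4 (0.29), and for Ccl4 the first was Ccl3 itself (0.24). Cxcl2 had lower values, led by the lysozyme gene Lyz2 (0.24), Dusp1 (0.22), Ccl6 (0.21), Mmp8 (0.21) and Cd14 (0.19). Tnf was nearest to granule genes of neutrophils, Lcn2 (0.14), S100a8 (0.14), S100a9 (0.13) and Ngp (0.13), at values too weak to read further. Il1b had Cxcl2 first, at 0.12.

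Receptors and other genes of the same pathways were counted by the same 1.5-fold rule among those with at least 50 UMIs, against the shares of 6.79% higher and 11.8% lower over all genes. Of 9 receptor genes measured, 1 was higher and 3 lower in the KO-labelled library. The lower ones were Cxcr2, the receptor for Cxcl2, from 5.48 to 1.14 CPM, the decoy receptor gene Il1r2, from 163 to 87.5 CPM, and Cx3cr1, from 7.80 to 4.92 CPM, and the higher was Il1rap, from 3.94 to 6.69 CPM. Ccr1, a receptor for Ccl3, Ccl6 and Ccl9, was at 235 and 196 CPM, and Ccr2 at 114 and 112 CPM. Of 6 other chemokine genes, 3 were higher and 2 lower. The lower ones were Cxcl10 and Ccl5. Ccl5 was at 5.66 and 3.66 CPM, and the counting interval of its log2 ratio (-1.31 to 0.02) included 0. Its 66 UMIs in the WT-labelled library came from a single cell (0.0259% of kept cells), and its 29 in the KO-labelled one from 0.282% of cells. The largest ratio was that of Pf4, at 3.94 and 79.9 CPM, followed by Ppbp, at 3.68 and 17.8 CPM. These rest on few cells, 0.155% and 0.987% of kept cells for Pf4 and 0.0776% and 0.282% for Ppbp. Both are also in the megakaryocyte marker list, which summed to 26.3 and 172 CPM with these genes included. Ccl2 was at 17.7 and 28.0 CPM and Cxcl10 at 3.68 and 1.52 CPM.

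Of 9 other inflammatory cytokine genes, 5 were higher and none lower, with a median log2 ratio of 0.70 against -0.01 over all genes. They were Osm (72.0 and 117 CPM), Il12a (15.8 and 31.7 CPM), Tnfsf13b (7.11 and 14.5 CPM), Tnfsf9 (2.06 and 5.18 CPM) and Il27 (1.89 and 3.54 CPM). Osm encodes oncostatin M, a cytokine of the interleukin-6 family, and was the 1 abundant gene among them. Of 10 genes of sensing and processing, 2 were lower, the inflammasome gene Nlrp3 (7.97 and 3.79 CPM) and the receptor gene Tlr2 (17.4 and 9.72 CPM), and none higher. NF-kB subunits and common targets had 2 higher and 2 lower of 21: Bcl2a1d (3.17 and 11.5 CPM) and Tnfaip3 (4.20 and 6.44 CPM) were higher, and Rel (13.8 and 6.82 CPM) and Tnfaip2 (29.7 and 16.9 CPM) lower. Of 18 immediate early genes 2 were higher, Dusp2 (76.0 and 134 CPM) and Dnajb1 (165 and 253 CPM), and 1 lower, Fosb (215 and 143 CPM). Of the 12 mitotic genes 1 was higher and 3 lower.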

How the data were processed

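Single-cell libraries were made by the submitters from YFP-sorted MLL-AF9 leukemia cells, 1 library per genotype, with a 10x Genomics 3′ kit. The deposited matrix holds raw UMI counts per gene and cell, made by the authors with Cell Ranger (1.3.1 in the submitters' processing notes, while the methods name another version) against mm10, and the deposited barcodes end in a number that tells the library. That number was tied to a genotype by the analysis code published with the study, not by a GEO label. Cells with 500 or more genes were kept, with 11669427 UMIs in the WT-labelled library and 7920256 in the KO-labelled one. Barcodes found in both libraries were kept, and so were possible doublets, with an alternative that left out the 5% of cells with most UMIs.

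CPM is a gene's UMIs per 1000000 UMIs of the kept cells, not divided by length, since 3′ tags count molecules. Poisson and Clopper-Pearson intervals (95%) cover counting error only, and no test was run between single libraries. A gene was called higher or lower at 1.5-fold among genes with 50 or more UMIs. Clusters came from k-means (12 clusters, 20 principal components, 686 variable genes, seed 1) without the members and listed inflammatory genes. A cluster was named only with 3 or more raised markers, 2 of them among its 10 leading genes. Thinning drew 1000 UMIs per cell without replacement. Every member was described, with the 5 genes most like it (found in 2% or more of cells) and up to 4 genes per list by the largest ratio. Ccr1, Ccr2, Ccl5 and Osm were added after their values were seen. The members and lists were chosen with earlier results of these data known. Ratios and thinning were tested on simulated data. Gene positions came from GENCODE M21 and upstream sequence from RefSeq. Python 3.11.15, numpy 2.4.6, scipy 1.17.1, pandas 2.3.3 and scikit-learn 1.9.0 were used.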

Additional observations from a re-analysis of the deposited data

Results flagged for a closer look

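Cells with fewer than 500 genes entered the comparisons only in the alternatives that used every deposited cell. Member levels in these cells were above those of kept cells in several cases. In the WT-labelled library, 203 such cells read 8982 CPM of Cxcl2, 2752 CPM of Ccl4, 793.3 CPM of Ccl3, 416.8 CPM of Ccl6 and 210.7 CPM of Tnf, and 53.79 CPM of Ccl9. In the KO-labelled library, 695 such cells read 741 CPM of Ccl6 and 165 CPM of Ccl9. They also read 919 CPM of Cxcl2, 580 CPM of Ccl3, 96.2 CPM of Ccl4 and 73.7 CPM of Tnf. Of these, 5 members were above their level in kept cells there too. Il1b also read higher, at 13.4 CPM from 3 UMIs in the WT-labelled library and 7.52 CPM from 5 UMIs in the KO-labelled one. Its intervals overlapped those of kept cells. Ccl9 was lower in the low cells than in kept cells in both libraries.

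A single cell, singled out after its values were seen, gave most of the Cxcl2, Ccl4 and Ccl3 UMIs of the low cells in the WT-labelled library. This cell of the WT-labelled library had 315 genes and 3977 UMIs, of which 1774 were Cxcl2, 597 Ccl4, 118 Ccl3 and 9 Tnf, together 62.8% of its transcripts. It had no UMI of Ccl6, Ccl9 or Il1b. It held 30.9% of all Cxcl2 and 55.7% of all Ccl4 UMIs among the deposited cells of its library, while the next highest cell anywhere had 40 UMIs of Cxcl2, 19 of Ccl4 and 32 of Ccl3. Its next leading genes were Camp (106 UMIs), Ubb (102 UMIs), Ngp (74 UMIs) and Fth1 (74 UMIs). Camp and Ngp are granule genes of maturing neutrophils, and the cell had 2 UMIs of Lyz2, 1 of S100a8 and none of Mpo, Ly6g or Csf1r. Without it the low cells of that library read 1050 CPM of Cxcl2 (918 to 1194), 77.6 CPM of Ccl4 (45.2 to 124), 269 CPM of Ccl3 (205 to 347) and 173 CPM of Tnf (123 to 238). Ccl3 was then below its 427 CPM in kept cells of that library, so its higher level in the low cells rested on this cell.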

How the results depend on the processing

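No paired analysis was possible because each genotype was a single pool. Over the 10 alternatives, the summed log2 ratio of -0.14 went to -0.24 with every deposited cell and with cells of 1000 or more genes, -0.35 thinned to 1000 UMIs, -0.53 thinned to 1500, -0.66 matched on total UMIs, -0.022 with every deposited cell but the one with most member UMIs (an alternative chosen after the data were seen), and 0.15 with clusters weighted alike, where the direction reversed. Members lower by 1.5-fold numbered 1, and 2 with every cell, 3 with 1000 or more genes, 3 thinned to 1500, 4 matched, 2 without the 10 highest cells, and 0 with clusters weighted alike or without the 1 highest cell. Members higher numbered 0, and 1 with clusters weighted alike. Ccl4 (0.20) reversed to -0.87 with every deposited cell, but stood at 0.30 when the 1 cell with most member UMIs was left out. Ccl4 also reversed to -0.072 with 1000 or more genes, -0.078 thinned to 1000 and -0.40 matched. Ccl9 (0.28) reversed to -0.053 thinned to 1500. Cxcl2 stayed below 0 by each, from -1.09 to -0.17.

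The median share held by the 1% of cells with most was 17.7% and 30.7% in the WT- and KO-labelled libraries, in that order. It was within 1.5 times under each choice of cells, and 52.9% and 67.7% for the top 5%. At 1% this median was the value of Cxcl2 in both libraries. Ccl3 (13.3% and 14.6%), Ccl9 (17.1% and 20.7%), Tnf (17.7% and 20.7%) and Ccl4 (48.7% and 53.6%) differed less between libraries, and Ccl6 (24.2% and 44.9%) more. Cells with at least 3 members, 16.5% and 8.10%, were 14.8% and 10.3% with 1000 or more genes, 6.92% and 3.79% thinned to 1000, and 7.29% and 3.71% thinned to 1500. At least 2 members were in 39.6% and 24.6%, and at least 4 in 5.02% and 2.12%. The 27.8-fold range over clusters stayed within 1.5 times with 8 or 16 clusters, another random start, or the members kept in. The cause of these shifts was not tested. Il1b, at 43 and 23 UMIs, is limited by depth.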
